A study of Mus musculus with 13 samples.

Results

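The receptors described here are 10 G protein-coupled receptors of the neuropeptide receptor list, 9 of them with a known peptide ligand and 1, Gpr101, an orphan, namely Mc4r, Qrfpr, Npy1r, Npy2r, Trhr, Crhr1, Sstr1, Sstr2, Gpr101 and Cckbr, out of 35468 gene names found in the deposited count tables. They were taken by name and with their levels over groups of cells and spots already known, so those levels are given as a description and without a test. Of the 10 receptors, 7 had a row in the table of dissociated neurons and all 10 had a row in the table of tissue spots. Npy2r, Trhr and Gpr101 were not analysed here in cells.

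Neuropeptides are short secreted peptides that are released from dense-core vesicles and act slowly and at a distance from the release site. Their receptors couple to G proteins: Mc4r, Crhr1 and Gpr101 mainly raise cyclic AMP, Qrfpr, Trhr and Cckbr mainly release calcium by way of Gq, and the somatostatin and neuropeptide Y receptors Sstr1, Sstr2, Npy1r and Npy2r lower cyclic AMP by way of Gi. In cortex, somatostatin and neuropeptide Y are made largely by inhibitory interneurons and cholecystokinin by inhibitory and excitatory neurons, whereas the peptides that act on Mc4r, such as alpha-MSH and its antagonist Agrp, are made mainly in the hypothalamus.

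The samples came from wild-type mice, and the strain of the dissociated neurons was B6. Neurons of the retrosplenial cortex, a midline cortical area, were cut from acute slices, dissociated and pooled over slices, which gave 765 cells in 11 samples from 3 animals. Each cell's column also named an anterior, medium or posterior level of dissection (256, 217 and 292 cells). The spots came from 2 brain cryosections, 10 µm thick, stained for NeuN and DAPI and processed on Visium slides, and are called S4 (1022 spots) and S8 (951 spots) after the column names.

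The 11 samples of cells held 2306470 to 15974543 counts, and the median count per cell was 65843 in animal 1, 132797 in animal 2 and 185995 in animal 3. The sections held 8436518 and 6389042 counts, with medians of 8266.5 and 6705 per spot. Excitatory markers were present in nearly all cells: Slc17a7, the vesicular glutamate transporter, had a count in 98.8% of them and Camk2a in 98.6%. Of the 7 interneuron markers, Slc32a1, Vip and Lhx6 had no row in cells. Gad1 held 47 counts in 46 cells, Gad2 15 counts in 13 cells and Sst, the somatostatin precursor, 100 counts in 70 cells. Pvalb went the other way, with 6572 counts in 140 cells. Of 331 well barcodes 237 occurred in more than 1 sample, and 162 spot barcodes occurred in both sections. Intervals and limits given for shares of cells or spots are exact 95% binomial intervals, or 3 counts where none was found, and cover counting error only. The p-values measure the spread between 3 animals, between 2 animals where posterior and anterior cells are compared within a class, or between 2 sections.

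Cells were grouped by marker genes that include no receptor. The groups are called by a leading marker, and 687 of 765 cells were placed: Calb1 (201 cells, superficial markers), Scnn1a (110, markers of a retrosplenial type), Deptor (86, markers of layer 5 intratelencephalic neurons), Fezf2 (147, layer 5 extratelencephalic markers Fezf2, Bcl11b, Parm1, Chst8 and C1ql2), Osr1 (71, layer 6 intratelencephalic markers), Foxp2 (57, layer 6 corticothalamic markers) and Ccn2 (15, layer 6b markers). Parm1 was higher in the Scnn1a class (641 CPM, the counts scaled to a common library size) than in the Fezf2 class (387 CPM), whereas C1ql2 was at 633 CPM in the Fezf2 class and at most 25.7 CPM elsewhere. The Ccn2 class had 3 to 7 cells per animal and was left out of means over animals. A clustering made without the receptors put 631 of the 687 placed cells in the same class, and 69 cells lay within 0.1 of the 0.2 margin that separates a cell's highest and next marker score.

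Promoter sequences are shown for Qrfpr and Sstr2, because these genes had the sharpest step between neighbouring classes, Qrfpr being high in a single class and Sstr2 nearly missing from a single class. Of the 10 receptors, 7 matched a window in the RefSeq table for assembly GRCm38.p6. Both windows below are the 250 bases before the annotated gene start, written 5′ to 3′ on the strand of the gene, for Qrfpr at chr3:36222276-36222525 on the minus strand and for Sstr2 at chr11:113619077-113619326 on the plus strand. Capitals mark CANNTG, the E-box bound by basic helix-loop-helix factors, in the Qrfpr window and TGACGTCA, the palindromic cyclic AMP response element, in the Sstr2 window. Neither sequence was measured in these samples.
Qrfpr: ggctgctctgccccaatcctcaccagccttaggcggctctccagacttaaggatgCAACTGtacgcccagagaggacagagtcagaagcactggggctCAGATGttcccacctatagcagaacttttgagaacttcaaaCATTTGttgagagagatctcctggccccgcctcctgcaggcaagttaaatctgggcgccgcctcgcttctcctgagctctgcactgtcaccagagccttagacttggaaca
Sstr2: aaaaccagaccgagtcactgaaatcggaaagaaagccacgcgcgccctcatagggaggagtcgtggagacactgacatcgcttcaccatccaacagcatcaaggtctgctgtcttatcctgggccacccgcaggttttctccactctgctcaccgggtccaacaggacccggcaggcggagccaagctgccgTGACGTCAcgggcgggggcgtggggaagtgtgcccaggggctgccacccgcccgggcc

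Both strands were searched. The Qrfpr window held 3 CANNTG matches and no TGACGTCA, TGACG or TATAAA. The Sstr2 window held 1 TGACGTCA, whose 2 strands give the 2 matches to the shorter TGACG, and no CANNTG or TATAAA. Among 32851 windows of this length, 66.2% held CANNTG, 1.55% held TGACGTCA, 17.8% held TGACG and 12.4% held TATAAA. The GC content was 54.8% in the Qrfpr window and 63.6% in the Sstr2 window. A match is a description of the letters and not a site of binding.

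Mc4r, the melanocortin receptor through which alpha-MSH lowers food intake, was found in 28 of 765 neurons (3.66%), and 225 of its 254 counts (88.6%) fell in the Fezf2 class. Its level in that class was 13.6 CPM in animal 1, 15.2 in animal 2 and 0.447 in animal 3, a mean of 9.76 ± 8.11 (SD, n = 3). Animals 1 and 2 were thus high, and animal 3, which had the deepest cells, was low. Mc4r had a count in 7, 14 and 2 Fezf2-class cells of the 3 animals, together 23 of 147 or 15.6% (interval 10.2% to 22.5%), and a single cell of animal 2 held 51 of all 254 counts (20.1%). The mean of the Fezf2 class was 14.4 CPM without animal 3.

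Outside the Fezf2 class Mc4r was close to absent. The Foxp2 class held 0, 0 and 8.21 CPM in the 3 animals, from 24 counts in 2 cells of animal 3, so that its range overlapped that of the Fezf2 class. The Scnn1a and Osr1 classes held 1 count each. None of 201 Calb1-class cells and none of 86 Deptor-class cells had a count, which allows shares of up to 1.49% and 3.49%.

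Qrfpr, the receptor of the RFamide peptide QRFP, had the same leading class as Mc4r but was found in more cells, 99 of 765 (12.9%). The Fezf2 class was at 71.9, 55.5 and 62.7 CPM in animals 1, 2 and 3, a mean of 63.4 ± 8.21 (SD, n = 3), and held 1458 of 1655 counts (88.1%). All 3 animals were alike, and none overlapped the next class. A count was present in 79 of 147 Fezf2-class cells (53.7%, interval 45.3% to 62.0%), and in 51.7% after thinning each cell to 50000 counts.

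In the other classes Qrfpr came from few cells. The Calb1 class was at 12.7, 5.84 and 1.10 CPM, from 9 of 201 cells (4.48%), and the Osr1 class at 0, 1.5 and 1.81 CPM. The Foxp2 class was at 0, 22.0 and 0 CPM, and all 61 of its counts were in a single cell of animal 2, which the clustering did not place with the Foxp2 cells. The Deptor and Scnn1a classes held 1 count each. The mean of the Fezf2 class was 21.0-fold the mean of the other classes, as shown in the plot of receptor levels by class.

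**Figure D1:**
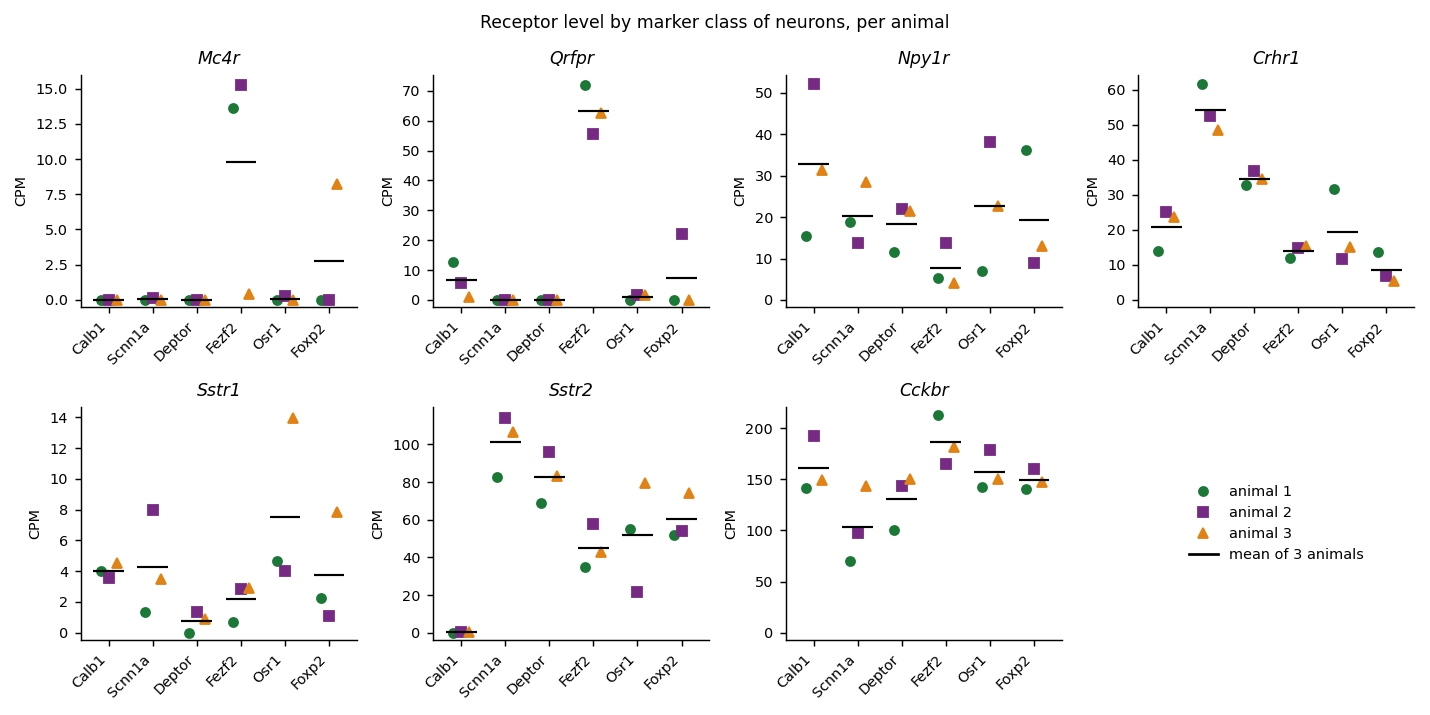
Level of the 7 receptors with a row in the cell table, in CPM, by marker class; each point is an animal and the black bar is the mean of 3 animals. Qrfpr stands high in all 3 animals in the Fezf2 class (55.5 to 71.9 CPM), Mc4r is high there in animals 1 and 2 only, and Sstr2 is near 0 in the Calb1 class (0 to 0.458 CPM).

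Within the Fezf2 class, Mc4r and Qrfpr were found together in 15 of 147 cells, where the product of their separate shares gives 12.4. The class was divided by the higher of 2 marker scores into a Reln side (41 cells), named for the secreted glycoprotein reelin, and a Nrtn/Tns1 side (106 cells). The Nrtn/Tns1 side took every cell whose Reln score was not the higher, so it is the rest of the class. Nrtn had a count in 42.5% of its cells and Tns1 in 60.4%, against 31.7% and 48.8% on the Reln side. Reln had a count in 14.2% of its cells, against 100% on the Reln side. Mc4r had a count in 31.7% of cells of the Reln side (interval 18.1% to 48.1%) and in 9.43% of the other side (4.62% to 16.7%). By animal the Reln side gave 20%, 42.1% and 28.6%, and the Nrtn/Tns1 side 13.8%, 13% and 0%, so the share was higher on the Reln side in 3 of 3 animals without overlap. The level, at 16.4, 38.8 and 2.49 CPM against 12.4, 7.07 and 0 CPM, was also higher on the Reln side within each animal but overlapped between animals, and the value of animal 3 rests on 4 counts in 2 of 7 cells.

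Qrfpr showed the same order of sides with a smaller gap. Its share was 65.9% on the Reln side and 49.1% on the Nrtn/Tns1 side. By animal these were 73.3%, 63.2% and 57.1% against 62.1%, 41.3% and 48.4%, which overlap between animals although the Reln side was higher within each. Its level was 90.0, 88.4 and 111 CPM on the Reln side and 63.8, 44.6 and 51.2 CPM on the other, which do not overlap.

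Npy1r had the opposite order. It was found in 4.88% of cells of the Reln side and 18.9% of the Nrtn/Tns1 side, by animal 6.67%, 5.26% and 0% against 24.1%, 23.9% and 6.45%. Sstr2 was at 48.8% against 65.1%, Crhr1 at 39.0% against 30.2%, Sstr1 at 4.88% against 8.49% and Cckbr at 97.6% against 91.5%. The sides also differed in origin, since 38 of the 41 cells of the Reln side came from the posterior level and none from the medium level.

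**Figure D2:**
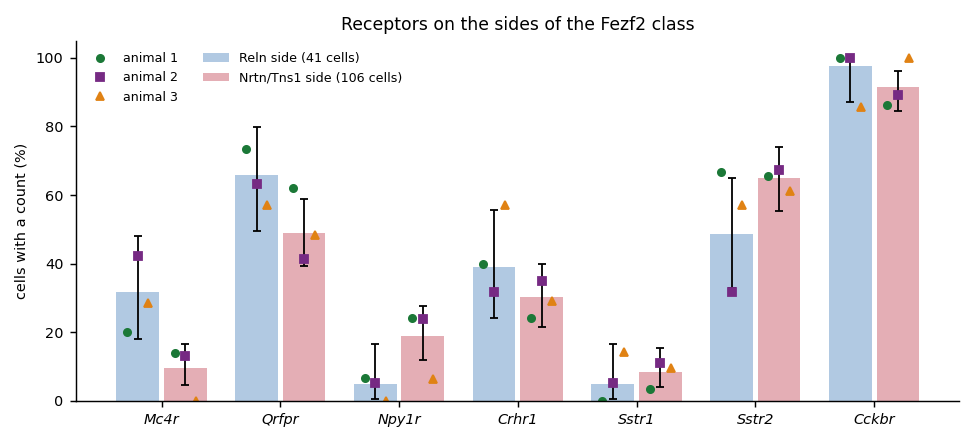
Share of cells with a count of each receptor, in percent, on the Reln side and the Nrtn/Tns1 side of the Fezf2 class; bars are the pooled shares, lines their exact 95% intervals and points the 3 animals. Mc4r is found in 31.7% of the Reln side against 9.43%, and Npy1r in 4.88% against 18.9%.

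Crhr1, the receptor of corticotropin-releasing hormone and urocortin, had its highest level in the Scnn1a class. That class was at 61.5, 52.5 and 48.5 CPM (54.2 ± 6.65, SD, n = 3), the Deptor class at 32.7, 36.8 and 34.4 CPM (34.6 ± 2.05) and the Calb1 class at 14, 25.1 and 23.7 CPM. These 3 classes stood apart, with no overlap of animals between the first and the second or between the second and the third. Crhr1 had a count in 83.6% of Scnn1a-class cells (72.6% after thinning), 47.7% of Deptor-class cells and 39.3% of Calb1-class cells.

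The lower classes of Crhr1 did not separate from their neighbours. The Osr1 class was at 31.6, 11.8 and 15 CPM, the Fezf2 class at 11.9, 14.7 and 15.4 CPM and the Foxp2 class at 13.6, 6.87 and 5.48 CPM. In the Foxp2 class only 4 of 57 cells had a count (7.02%), and these 4 were among the 11 cells that clustering placed elsewhere. The 46 cells that both groupings placed with Foxp2 had no Crhr1 count, which allows a share of up to 6.52%, and neither had any of the 71 cells of the Foxp2 cluster, which allows up to 4.23%.

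Cckbr, the brain receptor of cholecystokinin, was the most widespread of the 7, with a count in 639 of 765 cells (83.5%). The Fezf2 class was highest at 213, 165 and 182 CPM (187 ± 24.6, SD, n = 3), and the Scnn1a class lowest at 70.2, 97.2 and 144 CPM (104 ± 37.3). These extreme classes did not overlap, but each class overlapped its neighbour in the order, and the highest mean was 1.80-fold the lowest. The means of the Calb1, Osr1, Foxp2 and Deptor classes were 161, 157, 149 and 131 CPM.

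Npy1r, a main postsynaptic receptor of neuropeptide Y, was found in 229 cells (29.9%). The Calb1 class was at 15.4, 52.0 and 31.4 CPM (32.9 ± 18.4, SD, n = 3) with a count in 41.8% of cells, and the Fezf2 class at 5.34, 13.8 and 4.14 CPM (7.75 ± 5.24) with a count in 15%. The means of the Osr1, Scnn1a, Foxp2 and Deptor classes lay between 18.3 and 22.6 CPM. Each class overlapped its neighbour in the order. Within animals, the Calb1 class was above the Osr1 class, the next one, in 3 of 3, and the Fezf2 class was below the Deptor class in 3 of 3.

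Sstr2, a somatostatin receptor found on excitatory neurons, was the clearest case of a receptor missing from a class. The Calb1 class was at 0, 0.458 and 0.313 CPM (0.257 ± 0.234, SD, n = 3), from 10 counts in 7 of 201 cells (3.48%, interval 1.41% to 7.04%), or 2.11% after thinning. The next class, Fezf2, was at 35.0, 57.8 and 42.9 CPM, far outside that range. The Scnn1a class was highest at 82.6, 114 and 106 CPM (101 ± 16.4) with a count in 85.5% of cells. The Calb1 mean was 0.157 CPM without animal 2 and 1.32 CPM when cells under the score margin were added.

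Between these ends the classes of Sstr2 overlapped between animals. The Deptor class was at 68.9, 96.1 and 83.4 CPM with a count in 70.9% of cells, the Foxp2 class had a mean of 60.1 CPM, and the Osr1 class spread from 21.8 to 79.4 CPM. Within animals, the Scnn1a class was above the Deptor class in 3 of 3 and the Deptor class above the Foxp2 class in 3 of 3. Sstr2 and Crhr1 shared the Scnn1a and Deptor classes as their leading classes. Both were present in 82 of 110 Scnn1a-class cells, where the product of shares gives 78.6, and in 36 of 86 Deptor-class cells, where it gives 29.1.

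Sstr1, the other somatostatin receptor among the 10, was rare and did not mirror Sstr2. It was found in 96 cells (12.5%), and the Osr1 class had the highest mean, at 4.68, 4.0 and 14 CPM (7.54 ± 5.56, SD, n = 3). That rests on animal 3, without which the mean was 4.34 CPM. The Calb1 class, nearly free of Sstr2, was at 4.01, 3.55 and 4.54 CPM of Sstr1, and the Deptor class was lowest at 0, 1.35 and 0.866 CPM. Each class overlapped its neighbour. None of the Calb1-class cells had both somatostatin receptors, where the product of shares gives 1.11 cells.

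The classes also differed in how many of the 7 receptors a cell showed. The median cell had counts of 2 of them, 31 cells had none and the fullest had 6. At least 3 were present in 75.5% of Scnn1a-class cells, 61.9% of Fezf2-class cells, 26.4% of Calb1-class cells and 17.5% of Foxp2-class cells. The classes differ in depth in a similar way at their ends, with a median of 202141 counts per cell in the Scnn1a class and 110192 in the Foxp2 class, and the part of depth in this order was not tested.

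Across the 18 sums of class and animal, genes with the pattern most like each receptor were read from Pearson correlations of log2(CPM + 1), which share libraries and depth and are given as a description. For Mc4r these were Ptprh (0.823), Tns1 (0.774) and Il1b (0.736). Tns1 is a marker of the Nrtn/Tns1 side of the Fezf2 class, the side where Mc4r had the lower share of cells. For Qrfpr the genes were Gdf11 (0.903), Amdhd1 (0.883) and Npr3 (0.869). For Crhr1 they were Sft2d1 (0.899), Fndc5 (0.894) and Nell1 (0.879), and for Sstr2 Plcxd3 (0.878), Adora1 (0.854) and Slc5a5 (0.837). The values were lower for Npy1r (Shisa9 0.814, Elk1 0.805, Fam13c 0.751), Sstr1 (Fbxl5 0.773, Mst1r 0.765, Col4a2 0.756) and Cckbr (Slc35c2 0.816, Ldb2 0.814, Dnpep 0.775).

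The rest of the receptor family gives the setting in which these patterns stand. Of 71 other neuropeptide receptors on the list, 28 had a row in cells and 24 passed the filter on low counts. In edgeR's quasi-likelihood test, with Benjamini-Hochberg adjustment over 12877 genes and a log2 fold change of at least 1, 10 of the 24 were called in at least 1 class, against 14.4% of all genes tested. Left out in turn, animal 1 and animal 3 each brought the count to 6. Genes expressed in a class-specific way pass such a filter through the class where they are high, so the count is not a rate for the family.

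Sstr3, a somatostatin receptor, was nearly missing from the Fezf2 class, the class that led for Mc4r and Qrfpr. It was at 1.21, 0.18 and 3.13 CPM there, against class means of 20.2 to 27.8 CPM elsewhere, with edgeR giving -4.03 on the log2 scale (SE 0.64, adjusted p = 0.000731). Sstr4, the other somatostatin receptor tested, was called in no class. Adcyap1r1, the receptor of PACAP, was lower in the Fezf2 class (2.43, 0 and 4.03 CPM, log2 fold change -3.48, edgeR adjusted p = 0.0466). The neurotensin receptor Ntsr1 was higher there, at 8.26, 7.48 and 7.16 CPM, which is 5.35-fold the mean of the other classes (edgeR adjusted p = 0.0147). Without animal 1 or 2 the Adcyap1r1 call was lost (edgeR adjusted p = 0.252 and 0.244), and without animal 1, 2 or 3 so was the Ntsr1 call (0.0777, 0.157 and 0.0915).

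In the Foxp2 and Osr1 classes, 4 receptors other than Gpr83 were called. Hcrtr1, an orexin receptor, was at 70.0, 37.6 and 51.7 CPM in the Foxp2 class, 12.4-fold the other classes (edgeR adjusted p = 0.00176). Its relative Hcrtr2 was at 0, 5.42 and 12.3 CPM there (edgeR adjusted p = 0.0252), and was at 0 in 3 other classes. Oprk1, the kappa opioid receptor, was at 57.3, 38.8 and 96.9 CPM in the Osr1 class, 66.4-fold the mean of the others (edgeR adjusted p = 0.000343), but was not called by DESeq2 (adjusted p = 0.228). Npy5r, a neuropeptide Y receptor that lies beside Npy1r in the genome and whose reads could be shared with it, had no count in the Foxp2 class, which is at least 13.8-fold lower against a floor of 3 counts over the class (edgeR adjusted p = 0.0147). The Hcrtr2 call was lost without animal 2 (edgeR adjusted p = 0.106), and the Npy5r call without animal 2 or 3 (0.136 and 0.23). Under other groupings of the cells the edgeR difference of Npy5r was smaller and not called, at -0.58 on the log2 scale with clusters (adjusted p = 0.84) and -1.34 without the score margin (adjusted p = 1). Without the margin the Hcrtr2 call was lost too (edgeR adjusted p = 0.205), as was that of Adcyap1r1 (0.0693).

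In the Scnn1a class, which led for Crhr1 and Sstr2, the galanin receptor Galr1 was at 6.88, 4.23 and 5.82 CPM (edgeR adjusted p = 0.00441) and was at 0 in 4 of the other classes. The neurotensin receptor Ntsr2 was also higher there, at 14.2, 19.6 and 11.7 CPM (log2 fold change 2.60, edgeR adjusted p = 0.0288). Gpr83 was called in 4 classes, higher in the Osr1 class (log2 fold change 2.25, edgeR adjusted p = 0.000765) and the Calb1 class (1.91, adjusted p = 0.0044), and lower in the Foxp2 class (-2.25, adjusted p = 0.0213) and the Scnn1a class (-1.72, adjusted p = 0.0246). Leaving out an animal ended several of these calls in edgeR: Ntsr2 without animal 1, 2 or 3 (adjusted p = 0.185, 0.0603 and 0.114), and Gpr83 without animal 1 in the Osr1, Calb1, Foxp2 and Scnn1a classes (0.0596, 0.0624, 0.137 and 0.151). Without animal 2 Gpr83 was at an edgeR adjusted p of 0.179 in the Calb1 class and 0.106 in the Foxp2 class, and without animal 3 at 0.305 in the Scnn1a class. Without the score margin all 4 Gpr83 calls were lost (edgeR adjusted p = 0.0848 to 0.205). The Ntsr2 difference was 0.15 on the log2 scale with samples in place of animals as replicates (edgeR adjusted p = 0.985), and its adjusted p was 0.0926 without the animal block.

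Of 24 peptide, accessory and processing genes, 11 were tested between classes and 4 were called. Cck, the cholecystokinin precursor and ligand of Cckbr, was lower in the Scnn1a class at 311, 280 and 373 CPM (log2 fold change -2.97, edgeR adjusted p = 6.26e-10), the class where Cckbr was also lowest. It was higher in the Calb1 class, at 4655, 3565 and 4092 CPM, and in the Osr1 class, with a mean of 5146 CPM. Npy was higher in the Osr1 class, at 60.8, 98.1 and 1.81 CPM (log2 fold change 6.64, edgeR adjusted p = 5.85e-05), with animal 3 far below the others. Over all neurons of animal 2, Npy was at 31.8 CPM at the medium level, 0.142 at the anterior and 0.172 at the posterior level. In animal 1 these were 5.66, 13.7 and 4.87 CPM. Only 14 of 217 medium cells of all animals had an Npy count. The prohormone convertase genes Pcsk2 and Pcsk1 were lower in the Scnn1a class (log2 fold change -1.69, edgeR adjusted p = 1.96e-06) and the Osr1 class (-2.36, adjusted p = 0.0201). The Pcsk1 call was lost without animal 2 or 3 (edgeR adjusted p = 0.129 and 0.199), without the block (0.0659), with clusters (0.196) and without the margin (0.065).

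By level of dissection, Qrfpr and Mc4r were found mainly in posterior cells. Qrfpr was at 53.4, 40.0 and 27.2 CPM at the posterior level, 5.60, 8.78 and 1.96 at the anterior level and 0, 6.27 and 1.07 at the medium level, so the posterior level stood above the others in 3 of 3 animals without overlap. Mc4r was at 10.1, 13 and 0.646 CPM at the posterior level, 0, 0.849 and 0.667 at the anterior level and 0, 0.0803 and 0 at the medium level. For Mc4r animals 1 and 2 were high at the posterior level and animal 3 was not. Of the cells with a count, 75 of 99 for Qrfpr and 21 of 28 for Mc4r were posterior, where the level held 292 of 765 cells.

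The Fezf2 class itself was mostly posterior. It made up 52.8%, 36.7% and 24.3% of posterior cells in the 3 animals, 4.44%, 13.2% and 4.76% of anterior cells and 11.4%, 12.4% and 6.45% of medium cells, and 105 of its 147 cells were posterior. Within the class Qrfpr was at 85.2, 77.5 and 84.1 CPM in posterior cells and at 0 (2 cells), 49.8 (14 cells) and 23.5 CPM (5 cells) in anterior cells. The posterior cells were thus higher within the class too, in each animal, though few anterior cells were sampled. Qrfpr had a count in 64.8% of posterior, 42.9% of anterior and 9.52% of medium cells of the class.

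Mc4r within the Fezf2 class was at 16.1, 30.5 and 0.634 CPM in posterior cells and at 0, 3.77 and 0 CPM in anterior cells. It was found in 20 of 105 posterior cells (19.0%), 3 of 21 anterior cells (14.3%) and none of 21 medium cells, which allows up to 14.3%. Crhr1 had a count in 66.7% of anterior, 19.0% of medium and 28.6% of posterior cells of the class. Its level was 25.4, 24.5 and 36.8 CPM in anterior cells and 8.35, 11.5 and 14.4 CPM in posterior cells, with no overlap between animals. The anterior values came from 2, 14 and 5 cells, and that of animal 1 from 8 counts in 1 cell. The posterior values came from 38, 40 and 27 cells. The medium cells, at 43.3, 5.35 and 0 CPM from 4, 11 and 6 cells, spanned both ranges, so there was no steady order along the levels.

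Over all neurons, Crhr1 was at 29.4, 37.6 and 28.5 CPM at the anterior level and 26.0, 15.8 and 25.1 at the posterior level, again without overlap. Cckbr was higher at the posterior level, at 167, 192 and 162 CPM against 139, 131 and 142 at the anterior level, also without overlap. The medium level was at 23.3, 14.9 and 26.9 CPM for Crhr1 and 141, 172 and 152 CPM for Cckbr. With so few animals such a separation can arise by chance, and it was not tested. The means of the other receptors were close between levels, at 23.3, 19.5 and 19.8 CPM for Npy1r, 48.2, 54.4 and 51.9 CPM for Sstr2 and 4.05, 3.34 and 2.85 CPM for Sstr1 at the anterior, medium and posterior levels. Their animals overlapped. These levels do not hold the mix of classes fixed, as the plot by level of dissection shows for Qrfpr and Mc4r beside the share of Fezf2-class cells.

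**Figure D3:**
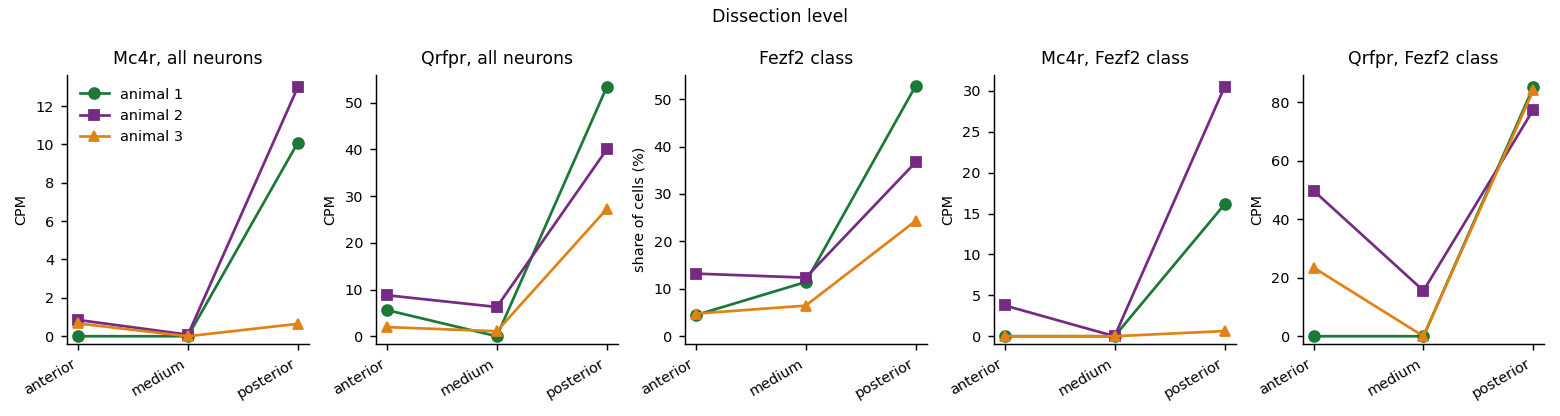
Level of Mc4r and Qrfpr in CPM by level of dissection (anterior, medium, posterior), in all neurons (left) and in the Fezf2 class (right), with lines joining the points of an animal, beside the share of cells that belong to the Fezf2 class in percent (centre). Over all neurons Qrfpr is at 27.2 to 53.4 CPM at the posterior level and at most 8.78 CPM elsewhere, and the share of the Fezf2 class is likewise highest there, at 24.3% to 52.8%.

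None of the 26 other receptors tested between levels was called by edgeR's quasi-likelihood test, where 0.103% of 13628 genes were called for posterior against anterior and 0.00734% for medium against anterior. At an unadjusted p under 0.05, 2 receptors passed for the posterior level and 3 for the medium level. DESeq2 called 1, Sstr3, lower at the posterior level (log2 fold change -1.68, DESeq2 adjusted p = 0.00159), where edgeR gave -1.68 (SE 0.34, edgeR adjusted p = 0.267). Its level was 37.0, 23.2 and 26.3 CPM anterior, 10.7, 14.2 and 20.4 medium and 10.6, 6.20 and 10.4 posterior, with no overlap between anterior and posterior. Sstr3 was also the receptor nearly missing from the Fezf2 class, which was largest at the posterior level. The part of the class mix in the lower posterior value of Sstr3 was not tested.

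Within the Calb1, Scnn1a, Deptor, Fezf2 and Foxp2 classes, none of the 6 to 14 other receptors tested was called between posterior and anterior cells. Each of these comparisons rests on 2 animals with enough cells at both levels, animals 1 and 3 for the Scnn1a class and animals 2 and 3 for the others. Of all genes, 0% were called by edgeR in 4 of these classes and 0.151% in the Deptor class. At an unadjusted p under 0.05, 1 receptor passed in each of the Calb1, Deptor and Scnn1a classes and none in the Fezf2 and Foxp2 classes, and DESeq2 called none.

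In tissue, spots were grouped by marker genes and are called by a leading gene. A spot is a small area that can hold several cells, and in such sums fewer cells of a type and less RNA per cell cannot be told apart. The groups were Tshz2, Cux2, Rorb, Fezf2, Foxp2, Ccn2, Trh (81 and 87 spots in S4 and S8), Mbp and Dcn, while 481 spots were placed in none. Summed interneuron markers were at 729 to 1186 CPM in all groups, so spots carried interneuron RNA throughout. In the dissociated cells, where 4 of the 7 markers had a row, the sum differed by class. It was 112 to 249 CPM in the Scnn1a class, 38.1 to 128 CPM in the Fezf2 class and at most 38.3 CPM in the other classes. In cells this sum was mostly Pvalb, with 6572 counts against 47 of Gad1, 15 of Gad2 and 100 of Sst. It is therefore not read as interneuron RNA in these classes.

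The 3 receptors not analysed in cells all had their highest level in the Trh group, whose markers are Trh, the precursor of thyrotropin-releasing hormone, Dlk1 and Calb2. The group also carried meningeal markers, Dcn, Igf2, Slc6a13 and Col1a2, at a sum of 90.6 to 210 CPM. Their sum was 298 to 348 CPM in the Dcn group and at most 26.9 CPM in the other named groups. Gpr101, an orphan receptor, was at 52.2 CPM in S4 and 53.2 CPM in S8 in the Trh group, against 0 to 13 and 1.74 to 9.83 CPM in the other groups. The Trh group was 13.7-fold and 11.9-fold the mean of the others, and held 57.3% of all 110 Gpr101 counts. A count was present in 17 of 81 Trh-group spots in S4 (21.0%) and 22 of 87 in S8 (25.3%).

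Trhr, the receptor of the peptide for which the group is named, was at 26.9 and 40.8 CPM in the Trh group, and the Dcn group (meningeal markers) was next in both sections at 13 and 22.9 CPM. Npy2r, a neuropeptide Y receptor often found on nerve terminals, was at 26.9 and 23.1 CPM in the Trh group, against 2.79 to 10.4 and 0 to 13.1 CPM elsewhere. The folds over the mean of the other groups were 5.70 and 5.63 for Trhr and 4.09 and 5.26 for Npy2r. The Trh group held 34.2% of the 117 Trhr counts and 27.5% of the 109 Npy2r counts, so most counts of both lay outside it.

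**Figure D4:**
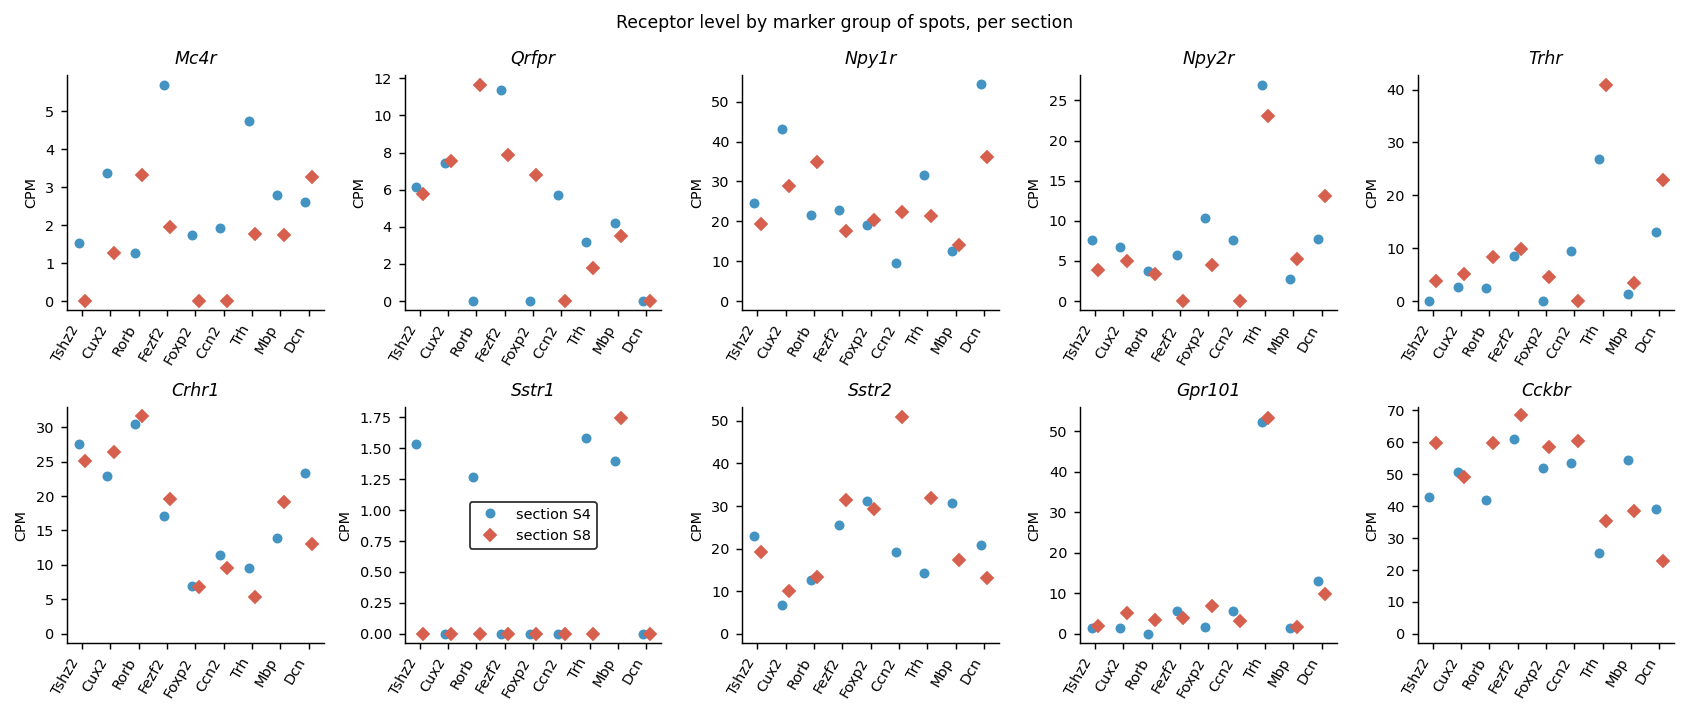
Level of the 10 receptors in CPM by marker group of spots, circles for section S4 and diamonds for section S8. Gpr101, Trhr and Npy2r are highest in the Trh group in both sections (52.2 and 53.2 CPM for Gpr101), and Crhr1 is highest in the Rorb group.

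At least 1 of Gpr101, Trhr and Npy2r was counted in 36 of 81 Trh-group spots of S4 and 41 of 87 of S8, against 102 of 941 and 69 of 864 other spots. At least 2 were counted in 8 and 11 Trh-group spots and in 5 and 7 other spots. All 3 were counted in 2 spots of the tissue, 1 of them in the Trh group.

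Within the Trh group, the shares of Trhr and Npy2r differed with the presence of a Trh count, which is described here without a test. Trhr had a count in 26 of the 70 spots with a Trh count (37.1%, interval 25.9% to 49.5%) and in 9 of the 98 without (9.18%), by section 35.3% against 4.26% in S4 and 38.9% against 13.7% in S8. Npy2r had a count in 28.6% against 3.06%, by section 29.4% against 6.38% and 27.8% against 0%. Both receptors thus had a higher share of spots with a Trh count than of those without in both sections. The median total of spots with a Trh count was 7037 against 8498 in S4 and 6751 against 6406 in S8, so they were the shallower ones in S4 and the deeper ones in S8.

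The shares of Gpr101 were nearly equal in that split. It was counted in 24.3% of spots with a Trh count and 22.4% of those without, with opposite orders by section (17.6% against 23.4% in S4 and 30.6% against 21.6% in S8). Divided instead by Dlk1, it was counted in 29.9% of spots with a Dlk1 count and 16% of those without, by section 31.1% against 8.33% and 28.6% against 22.2%, while Trhr was at 18.4% against 23.5% and Npy2r at 8.05% against 19.8%. In spots outside the group and without a Trh count, Trhr was found in 3.97% and 3.73% and Npy2r in 4.94% and 2.68%. Only 15 spots outside the group had a Trh count, of which 1 had a Trhr count and 3 an Npy2r count.

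**Figure D5:**
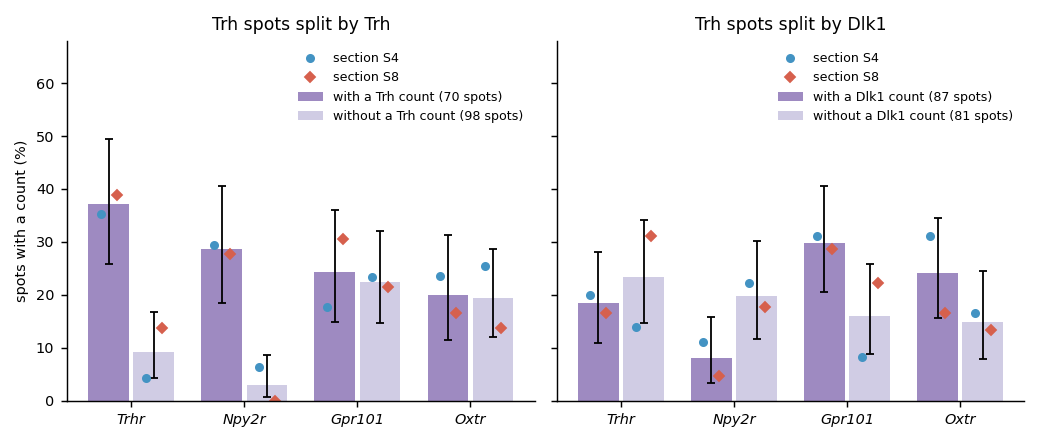
Share of Trh-group spots with a count of Gpr101, Trhr, Npy2r and Oxtr, in percent, split by whether the spot has a count of Trh or of Dlk1; bars are the pooled shares, lines their exact 95% intervals and points the sections. Trhr and Npy2r are found in 37.1% and 28.6% of spots with a Trh count and in 9.18% and 3.06% of those without, whereas Gpr101 is at 24.3% and 22.4%.

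For the receptors with rows in both tables, the spots gave the same ends for some and not for others. Crhr1 was highest in the Rorb group at 30.4 and 31.6 CPM and low in the Foxp2 group (6.93 and 6.77 CPM) and the Trh group (9.49 and 5.32 CPM), as it was low in Foxp2-class cells. Sstr2 was lowest in the Cux2 group, which has superficial markers, at 6.75 and 10.1 CPM, as it was in the superficial Calb1 class of cells. The Foxp2 group was at 31.2 and 29.3 CPM of Sstr2, and the Ccn2 group, at 19.1 and 51.0 CPM, differed between sections.

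Npy1r was highest in the Dcn group at 54.5 and 36.0 CPM and lowest or next to lowest in the Mbp group (myelin markers) at 12.6 and 13.9 CPM, and the Cux2 group was at 43.2 and 29.0 CPM. Cckbr was highest in the Fezf2 group in both sections, at 61.1 and 68.7 CPM, the same leading marker as in cells. It was low in the Trh group (25.3 and 35.5 CPM) and the Dcn group (39.0 and 22.9 CPM).

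Mc4r and Qrfpr were too sparse in spots to rank the groups. Qrfpr had 82 counts in 75 of 1973 spots, with 11.4 and 7.85 CPM in the Fezf2 group, 0 and 11.6 CPM in the Rorb group and none in the Dcn group. Mc4r had 33 counts in 32 spots and Sstr1 had 9 counts in 9 spots, and their order of groups differed between the sections.

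Of the ligands, somatostatin and cholecystokinin were plentiful in the spots and the hypothalamic peptides were not. The sections S4 and S8 held 2950 and 2653 counts of Sst, 9882 and 6047 of Cck, 1372 and 942 of Npy, 206 and 179 of Cort, 79 and 64 of Trh and 75 and 36 of Crh. Pomc, the precursor of alpha-MSH, had 41 and 32 counts, Agrp 0 and 2, and Qrfp none in either section.

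Among the other receptors, 10 of 71 were tested between spot groups and 3 were called by edgeR's quasi-likelihood test in at least 1 group, against 7.12% of 9571 genes. Oxtr, the oxytocin receptor, was higher in the Trh group, at 36.4 and 24.8 CPM against 0 to 13.7 CPM in the others (log2 fold change 2.63, SE 0.41, edgeR adjusted p = 3.18e-07). It was counted in 20.0% of Trh-group spots with a Trh count and 19.4% of those without, nearly equal shares, as for Gpr101. Rxfp1, a relaxin receptor, was lower in the Cux2 group (2.70 and 5.04 CPM, log2 fold change -1.74, edgeR adjusted p = 0.011), and Gpr83 was higher in the Tshz2 group (47.6 and 36.6 CPM, log2 fold change 1.05, edgeR adjusted p = 0.00581). The Rxfp1 call was lost with DESeq2 (adjusted p = 0.227), without the section block (edgeR adjusted p = 0.074) and with clusters of spots (log2 fold change -0.90, edgeR adjusted p = 0.155). With clusters Gpr83 was at a log2 fold change of 0.85, under the threshold. Of 11 peptide and accessory genes tested, only Trh was called, in the group for which it is a marker.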

How the data were processed

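Neurons were dissociated from retrosplenial cortex and sections were taken through the Visium workflow, per the labels' protocols. The deposited tables hold whole-number counts for each gene in each cell or spot, and their unequal totals show that they are not normalized. Seurat, Space Ranger and the builds NCBIM37 and mm10 are named in the submitters' processing notes, without a role. The aligner, the annotation and whether counts in cells are reads or molecules are not given in the sources used here. Every gene of the cell table had a count in at least 10 cells and every cell at least 2510 genes. The labelled section that S4 or S8 stands for was not used, and 0 count columns lacked a sample. Reads of overlapping or near-identical genes can be shared.

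The receptors, lists, markers and named genes were chosen with earlier results of these data known. Named genes are the 10 receptors, other listed genes called in a fit (up to 10 with the largest fold change), and per receptor the 3 most correlated genes. Cells and spots were assigned to the highest mean marker score, with a margin of 0.2 over the next. Clusters came from scanpy 1.11.5 (2000 variable genes, 30 components, 15 neighbours, Leiden resolution 1), without the receptor list, and no doublet caller was run. Counts were summed per animal and class (at least 10 cells), animal and level, or section and spot group, and fitted in edgeR 4.0.16 under R 4.3.3 (TMM scaling, filterByExpr, quasi-likelihood glmQLFTest), with the animal or section as a block, since a deposited table gives the animal of each cell. DESeq2 1.42.0 was an alternative. A call needed an adjusted p under 0.05 and a log2 fold change of at least 1 in size, and the SE is the fold change divided by the square root of F. CPM use TMM library sizes, except plain totals within class and level, within sides of the Fezf2 class and for single samples. Thinning was to 50000 counts per cell (61 cells left out) and 4000 per spot (95 left out). On simulated data with 200 genes changed by a log2 value of 2, the class fit recovered 190 (12213 genes), the level fit 178 (13368 genes) and the spot fit 152 (9351 genes), with 10, 4 and 7 false calls. Every simulated gene had the same dispersion, no animal or section effect and, before the change, the same share of counts in all groups. Genes at 0 in several classes were not simulated, so the recovery is not a rate for the receptors.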

Additional observations from a re-analysis of the deposited data

Results flagged for a closer look

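In 25 groups of 4 to 10 samples, 5 had a sample that stood apart from the rest. Chance flags about 1 in 20 groups of normally distributed values, but where all other samples are at 0 any count is flagged, so the number of flags is not set against chance. Qrfpr in the Calb1 class was at 11.8 CPM in sample 14, against 0 to 5.17 CPM in the others, and Npy1r in the Calb1 class was at 78.5 CPM in sample 13, against 13.9 to 46.5 CPM. The other flags were against samples at 0: Qrfpr in the Scnn1a class was at 0.358 CPM in sample 17, Qrfpr in the Deptor class at 0.467 CPM in sample 17, and Sstr1 in the Deptor class at 3.13 CPM in sample 16.

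Crhr1 moved in opposite directions between posterior and anterior cells of different classes, in both animals with at least 5 cells at each level, which were animals 1 and 3 for the Scnn1a class and animals 2 and 3 for the others. Posterior minus anterior it was -27.7 CPM in the Deptor class, -17.7 CPM in the Fezf2 class and -5.50 CPM in the Calb1 class, and 13.7 CPM in the Scnn1a class and 19.9 CPM in the Foxp2 class, where it rests on 1 posterior cell in each animal, both among the cells that clustering placed elsewhere. The comparison was made for 70 pairs of classes over the 7 receptors, and only Crhr1 was flagged. With so few animals per class, opposite directions can arise by chance, and the flags were not set against it. The difference between classes was not tested.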

How the results depend on the processing

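Of the summary values recomputed under other settings, 121 stayed near the main value and 12 moved. Near meant within a set ratio for counts of calls, and within the SD of animals or sections for levels. Such values have no direction, so none could reverse. Of the named genes' calls under those settings, 158 were kept and 38 were lost. The 10 receptors called between classes became 6 to 7 when an animal was left out (6 without animal 1 and 6 without animal 3), 7 with samples as replicates and 7 with no margin. In the paired designs the animal was the block, because each animal gave every class. With no replicate block 9 receptors were called between classes and 2 between spot groups, where 3 were called with it. DESeq2 called 1 receptor between the posterior and anterior levels where edgeR called 0, and 1 between spot groups, while clusters in place of marker groups gave 5. For peptides between spot groups, 1 was called, and 3 without a filter and 5 with clusters. Of the receptor levels, Sstr2 in the Calb1 class was 1.32 CPM with no margin, Crhr1 in the Foxp2 class 0 with clusters, Gpr101 in Trh-group spots 43.9 with clusters and 54.5 thinned, and Npy2r there 29.0 thinned. Mc4r in the Fezf2 class ranged from 7.02 to 14.4 CPM with an animal left out. Sstr3 in the Fezf2 class stayed called in 10 of 10 settings and Oxtr in Trh-group spots in 5 of 5, but Npy5r in 5 of 9, Ntsr2 in 5 of 10, Hcrtr2 in 5 of 7, Pcsk1 in 4 of 9 and Rxfp1 in 2 of 5. Leaving out an animal within classes could be fitted only in part. Depth limits Mc4r, Qrfpr and Sstr1 in spots, and receptors at 1 count in a class.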
